A study of Mus musculus with 12 samples.

Results

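The terminal ileum of 3 female offspring labelled C57 and STAT (WT_STAT) was compared with that of 3 female offspring labelled C57 and control (WT_control), across all genes of a NanoString nCounter panel. These 6 samples were chosen by their deposited group labels, out of 12 samples in 4 groups of 3. All 6 were C57BL/6 pups by their label. The mothers of the WT_STAT pups had been exposed to cecal contents perturbed by STAT, taken here as the study's name for subtherapeutic antibiotic treatment, and the mothers of the WT_control pups to control cecal contents. The pups therefore met the inoculum through the mother, and the labels name no drug given to them. The other 6 samples, labelled IL10 for deficiency of that cytokine, form an IL10_STAT and an IL10_control group. Age, mother, litter and cage are not given in the sources used here, so mice of a group may share a mother, and inoculum and mother cannot be told apart. The table held 547 genes, of which 457 reached a signal of 20 in 3 or more of the 12 samples and were tested, and 90 were left out.

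The ileum is the last stretch of the small intestine and lies next to a dense microbiota. Its lamina propria holds antibody-secreting plasma cells, macrophages that are renewed from blood monocytes through the receptor CCR2, and dendritic cells that present antigen on MHC class II. Its wall also holds B cell follicles, chiefly in Peyer's patches, which are patchy along the gut, so that a piece of tissue may hold more or less of them. In bulk tissue, a lower signal from fewer cells of a type and one from less RNA per cell cannot be told apart.

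The counts above background, read from the step size of the values, were 242948, 276579 and 191012 in the WT_STAT samples and 365850, 250662 and 146691 in the WT_control samples. Pigr, which carries antibody across the gut epithelium, was the most abundant gene in samples 1 and 2 of each group, and the marker list of epithelium summed to 70821, 71050 and 44991 in WT_STAT and to 71748, 72858 and 29256 in WT_control. Samples 3 of both groups stood apart: on the log2 scale, the mean level of 22 broadly expressed genes was 9.18 in WT_STAT 3 and 8.91 in WT_control 3, against 9.60 or more in the other 4. Il10 was listed at 0 in all 3 WT_STAT samples and at 0.452, 1.02 and 0 in WT_control, while it was 24.9 to 74.4 in the samples labelled IL10. The genotype label and this signal run against each other, so the mice are called C57-labelled. The H2-Ea-ps probe, for a class II pseudogene of the C57BL/6 haplotype, was at 0 in all 6 C57-labelled samples.

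Irf4 and Slamf7, both on the plasma cell list, the monocyte chemokine Ccl8 and the T cell chemokine Cxcl9 rose in WT_STAT. MHC class II genes, macrophage genes and B cell genes lay higher in WT_STAT by their medians without a member that passed the test. With limma's moderated test on log2(signal + 1), adjusted by the Benjamini-Hochberg method over 457 genes, 4 genes (0.875%) rose and 0 (0%) fell at an adjusted p under 0.05. Before adjustment, 77 genes (16.8%) were higher and 2 (0.438%) lower at p under 0.05, and the WT_STAT samples lay wholly above the WT_control samples in 72 genes (15.8%) and wholly below in 1 (0.219%). The panel as a whole was shifted: the median log2 difference was 0.24, and 365 of 457 genes had a positive one.

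That shift depends on the scaling. Centring each sample on its median lowered every log2 difference by the same amount (a change of -0.37), which left 36 genes higher and 21 lower at an unadjusted p under 0.05 and 0 genes past the adjusted threshold. After centring the WT_STAT samples lay wholly above the WT_control samples in 36 genes (7.88%) and wholly below in 49 (10.7%). The balance of both directions turned by this count, but not by the count at an unadjusted p under 0.05. The broadly expressed genes then had a median of -0.33, with 1 of 22 positive. Quantile normalization left 28 higher and 15 lower, again with 0 past it, and scaling on the broadly expressed genes left 77 higher and 4 lower with 3 past it. Group medians are therefore given beside the panel median of 0.24 under the deposited scaling. Centred group medians stand beside a centred panel median of -0.13, not 0. Counts of list members higher at an unadjusted p under 0.05, or apart and higher, stand beside panel shares of 16.8% and 15.8%.

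**Figure D1:**
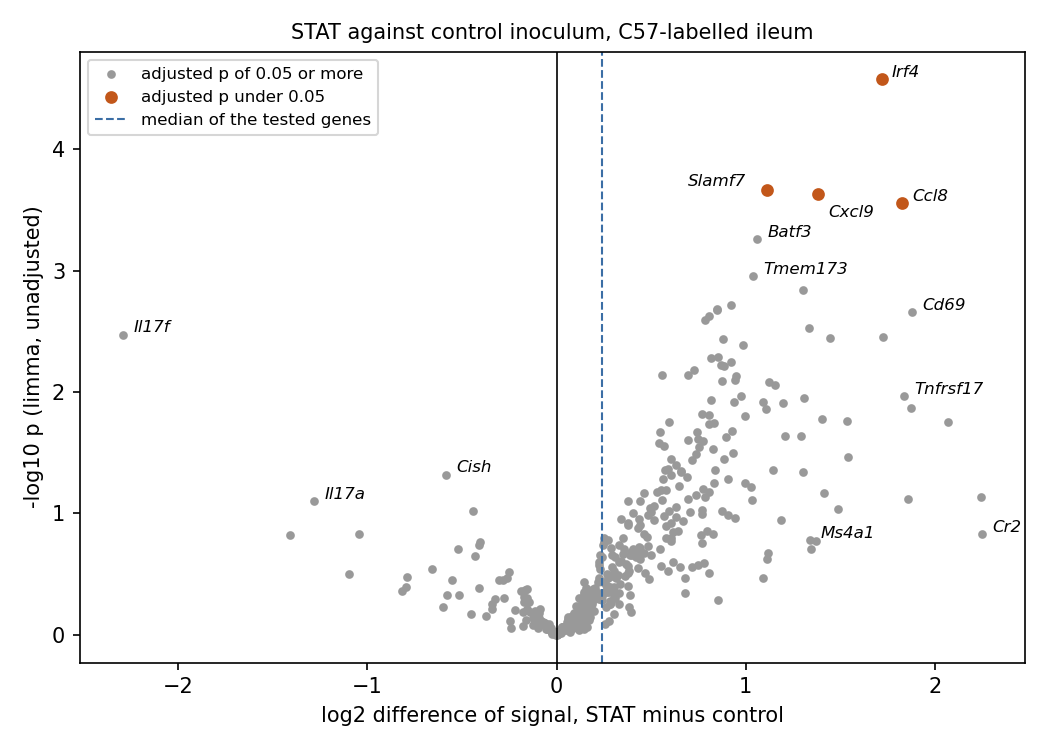
Each point is 1 of 457 tested genes: the x axis is the log2 difference of signal, WT_STAT minus WT_control, and the y axis is -log10 of the unadjusted p from limma. The 4 genes past an adjusted p of 0.05 are in orange, the dashed line is the panel median of 0.24, and most points lie right of 0.

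Irf4 encodes the transcription factor that plasma cell differentiation requires and that also acts in activated T cells and dendritic cells. Its signal was 97.7, 72.7 and 74.3 in WT_STAT samples and 24.9, 24.2 and 22.6 in WT_control samples. The lowest WT_STAT sample lay well above the highest WT_control sample, and the controls were nearly alike. Irf4 averaged 81.6 ± 14 in WT_STAT and 23.9 ± 1.20 in WT_control (SD, n = 3 each), a log2 difference of 1.72 ± 0.25 (SE) or 3.29-fold (limma adjusted p = 0.0121). Of the 22 alternative settings, Irf4 passed in 16, and its log2 difference ranged from 1.01 to 1.79.

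Slamf7 encodes a surface receptor of plasma cells, NK cells and activated myeloid cells. Its signal was 324, 266 and 258 in WT_STAT samples, against 128, 154 and 110 in WT_control samples, with no overlap. The log2 difference was 1.11 ± 0.20 (adjusted p = 0.0315 in limma). Cxcl9 encodes a chemokine that interferon-gamma induces and that draws T cells through CXCR3. Its signal was 64.9, 55.9 and 85.6 in WT_STAT samples, against 20.4, 21.5 and 37.1 in WT_control samples. The groups did not overlap, and sample 3 was the highest of each group, although these were the samples of lowest total signal. The log2 difference of Cxcl9 was 1.38 ± 0.26 (adjusted p = 0.0315 in limma).

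Ccl8 encodes a monocyte-attracting chemokine made by tissue macrophages. It was at 595, 323 and 355 in WT_STAT samples, against 111, 70.6 and 191 in WT_control samples. All WT_STAT samples were above all WT_control samples, and WT_STAT 1 was far the highest. The log2 difference was 1.83 ± 0.35 (adjusted p = 0.0315 in limma), or 3.55-fold. Slamf7 passed in 9 of the 22 alternative settings, and Cxcl9 and Ccl8 in 8 each. All 4 genes passed without WT_STAT 3 and without samples 3 of both groups, the latter setting chosen after seeing the data. None of the 4 passed without WT_STAT 1 (adjusted p = 0.0859 to 0.156), without WT_control 1 (0.0633 to 0.139), after median centring (0.136 to 0.317) or with the C57-labelled samples alone (0.0938 to 0.31).

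**Figure D2:**
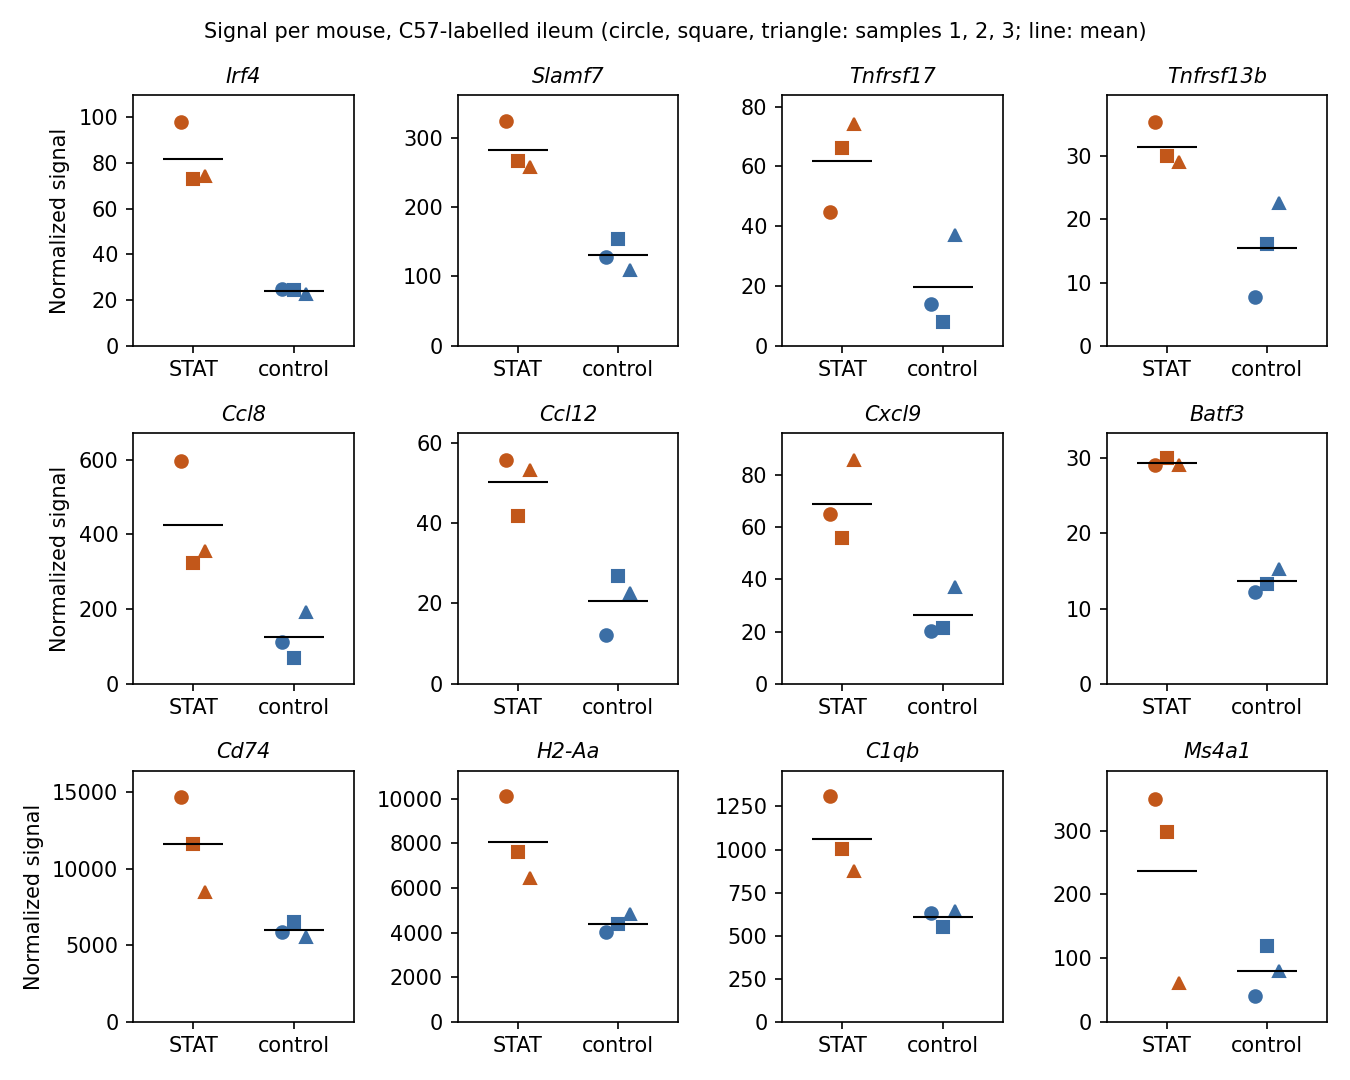
Normalized signal (y axes, linear, from 0) of 12 genes in each C57-labelled mouse, STAT at the left in orange and control at the right in blue. Circles, squares and triangles are samples 1, 2 and 3, and the line is the mean of 3 mice. The groups are apart in every panel but that of Ms4a1, where WT_STAT 3 lies among the controls.

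The plasma cell list covered the transcription factors Irf4, Prdm1 and Xbp1 and the surface proteins Slamf7, Tnfrsf17 and Tnfrsf13b. Of its 10 genes 6 were in the table, and all 6 were tested. Of these 2 rose and 0 fell, 4 were higher at an unadjusted p under 0.05 (16.8% in the panel), and in 5 the groups were apart (15.8%). After median centring 2 were higher at an unadjusted p under 0.05 and 2 lay wholly above the controls, the latter beside 7.88% of the panel. The median log2 difference was 1.10 (0.85 with values under 20 set to 20), beside 0.24 for the panel, and all 6 differences were positive. Tnfrsf17, the receptor BCMA that sustains plasma cells, was at 44.7, 66.2 and 74.3 in WT_STAT samples, against 14, 7.84 and 37.1 in WT_control samples. Its groups were apart but the controls were spread widely, and it did not pass (1.84 ± 0.60, adjusted p = 0.143 in limma). Tnfrsf13b, the receptor TACI for the same ligands, was at 35.3, 30.0 and 29.0 in WT_STAT samples, against 7.69, 16.0 and 22.6 in WT_control samples. It too did not pass (1.09 ± 0.36, adjusted p = 0.143).

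Prdm1, the repressor that ends the B cell program, was at 58.7, 50.7 and 41.8 in WT_STAT samples, against 44.8, 50.1 and 19.6 in WT_control samples, and the groups overlapped. Xbp1, which drives the secretory pathway in plasma cells and in epithelial secretory cells alike, was at 4793, 4077 and 4301 in WT_STAT samples, against 3620, 3897 and 3527 in WT_control samples, a log2 difference of 0.25 ± 0.17. Its groups were apart by a small margin, and its difference became negative when each sample was centred (-0.12). Per mouse, the mean log2 level of the list was 7.30, 7.16 and 7.15 in WT_STAT samples, against 6.01, 6.13 and 6.22 in WT_control samples, so that all 3 mice of each group were close together, samples 3 included. Without samples 3 of both groups, a setting chosen after seeing the data, 2 of the 6 passed, beside 31 of 457 genes of the panel (6.78%). The median was then 1.26.

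The list called the CCR2 chemokine axis holds the receptor Ccr2, by which monocytes leave the bone marrow, and the monocyte chemokines Ccl2, Ccl7, Ccl8 and Ccl12. Whether each of them, Ccl8 included, acts through Ccr2 in the mouse was not tested. All 5 listed genes were tested, 1 rose (Ccl8), 2 were higher at an unadjusted p under 0.05, and the median log2 difference was 0.83. Ccl12 was at 55.6, 41.6 and 53.1 in WT_STAT samples, against 12.2, 26.9 and 22.6 in WT_control samples, with no overlap (1.30 ± 0.31, adjusted p = 0.0896 in limma). Ccr2 was at 221, 175 and 67.2 in WT_STAT samples, against 99.1, 61.0 and 75.0 in WT_control samples. WT_STAT 3 lay within the control range, and the other 2 WT_STAT samples lay above all controls. The remaining chemokines of the list did not differ in the same way. Ccl2 was at 69.6, 35.1 and 24.8 in WT_STAT samples, against 33.0, 17.4 and 57.5 in WT_control samples. Ccl7 was at 27.5, 58.5 and 30.4 in WT_STAT samples, against 46.6, 40.6 and 47.3 in WT_control samples. Both overlapped between the groups, with log2 differences of 0.28 ± 0.46 for Ccl2, which was -0.09 when centred, and -0.28 ± 0.29 for Ccl7.

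Cxcl9 belongs to the CXCR3 axis with the interferon-induced ligands Cxcl10 and Cxcl11 and their chemokine receptor Cxcr3, and all 4 were tested. The median log2 difference was 1.05 (0.38 with values under 20 set to 20), with 1 gene past the test. Cxcl10 was at 11.9, 20.9 and 24.8 in WT_STAT samples, against 4.98, 11.9 and 3.64 in WT_control samples. WT_STAT 1 lay at the level of WT_control 2, and all WT_control values and WT_STAT 1 were below 20, so no fold is given. Cxcr3 was at 66.5, 58.5 and 30.4 in WT_STAT samples, against 31.2, 50.1 and 19.6 in WT_control samples, and the groups overlapped. The wider list of interferon-gamma induced genes had 10 tested members, 1 past the test and a median of 0.66 (0.26 once values below 20 were raised to it). Ifng itself was at 0, 1.46 and 0 in WT_STAT samples and at 0 in every WT_control sample. The Th1 and interferon-gamma pathway list had 11 tested genes, with 0 higher at an unadjusted p under 0.05 and 0 apart. Its median was 0.36, and -0.01 when centred. Nos2, the inducible nitric oxide synthase of the interferon-gamma induced list, was at 15, 20.9 and 7.79 in WT_STAT samples, against 19.5, 14.7 and 22.6 in WT_control samples.

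MHC class II genes encode the alpha and beta chains that present peptides (H2-Aa, H2-Ab1, H2-Eb1), the invariant chain Cd74 that escorts them, the peptide editors H2-DMa and H2-DMb2, the B cell modulator chain H2-Ob, and the transactivator Ciita that switches the group on. CIITA acts on class II promoters through proteins bound at a conserved module that ends in a Y box, the sequence CCAAT, close to the start site. The promoters of class II genes are shown because all tested members had a positive difference, and that of Cxcl9 as a called gene that holds the same letters. They run from 250 bases before to 50 bases after the start, 5′ to 3′ on the gene's strand, with CCAAT or its complement ATTGG in capitals (RefSeq, GRCm38.p6). H2-Aa is at chr17:34287774-34288073 on the minus strand, H2-Eb1 at chr17:34305617-34305916 and H2-Ob at chr17:34238655-34238954 on the plus strand, and Cxcl9 at chr5:92328030-92328329 on the minus strand.
H2-Aa: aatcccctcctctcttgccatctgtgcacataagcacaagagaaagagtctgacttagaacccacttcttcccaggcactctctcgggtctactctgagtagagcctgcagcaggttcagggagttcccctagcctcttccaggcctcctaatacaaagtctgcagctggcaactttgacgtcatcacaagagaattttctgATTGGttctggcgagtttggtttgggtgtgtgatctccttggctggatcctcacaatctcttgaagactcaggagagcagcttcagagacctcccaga
H2-Eb1: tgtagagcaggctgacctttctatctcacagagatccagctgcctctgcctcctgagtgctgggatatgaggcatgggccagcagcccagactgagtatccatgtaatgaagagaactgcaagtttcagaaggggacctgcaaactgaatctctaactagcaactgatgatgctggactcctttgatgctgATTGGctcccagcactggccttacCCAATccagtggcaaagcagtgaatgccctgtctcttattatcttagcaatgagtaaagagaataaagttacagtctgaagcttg
H2-Ob: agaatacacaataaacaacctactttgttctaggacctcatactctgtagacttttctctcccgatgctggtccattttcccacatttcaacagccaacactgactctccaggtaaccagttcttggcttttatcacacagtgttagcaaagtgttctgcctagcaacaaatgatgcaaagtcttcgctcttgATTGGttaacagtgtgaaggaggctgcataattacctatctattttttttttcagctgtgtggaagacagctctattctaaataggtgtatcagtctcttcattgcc
Cxcl9: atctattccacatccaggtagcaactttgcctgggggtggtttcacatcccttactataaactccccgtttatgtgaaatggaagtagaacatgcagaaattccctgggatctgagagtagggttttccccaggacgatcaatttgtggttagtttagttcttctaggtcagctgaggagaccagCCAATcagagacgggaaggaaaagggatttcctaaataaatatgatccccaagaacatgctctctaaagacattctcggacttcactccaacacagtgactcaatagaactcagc

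The first base of the CCAAT match lay at -48 in H2-Aa, at -59 and -35 in H2-Eb1, at -57 in H2-Ob and at -65 in Cxcl9, counted from the start site. Only these letters were searched and not the rest of the module, so a match is not shown to be a Y box. Of the 2 start sites listed for H2-DMa, whose windows are not shown, 1 held no CCAAT and the other held it only at -198. CCAAT on either strand is held by 37.4% of 32851 mouse promoters of this length, so a match is common. The interferon motif GAS (TTCNNNGAA), searched on both strands, is held by 8.3% of them and was found at -218 in H2-DMb2, which also had a CCAAT match at -90. The ISRE core (GAAA, any pair of bases, GAAA) is held by 3.44% and was in none of the promoters searched. Of the 12 genes sought, 9 had an entry that was used. The class II genes Cd74, Ciita and H2-Ab1 were not among them, so their promoters were not searched. No matches overlapped, and the windows of Irf4, Slamf7 and Ccl8 held none of these letters.

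Of the 11 class II genes listed, 9 were in the table and 8 were tested, H2-Ea-ps being the other. None of the 8 passed after adjustment, all 8 were higher at an unadjusted p under 0.05, and in 5 the groups were apart. The median log2 difference was 0.90 and the members ran from 0.81 to 1.54. Cd74 was at 14726, 11623 and 8470 in WT_STAT samples, against 5886, 6499 and 5567 in WT_control samples. H2-Aa was at 10096, 7590 and 6447 in WT_STAT samples, against 4007, 4387 and 4817 in WT_control samples. In both genes the controls were within a narrow band, all WT_STAT samples were above it, and WT_STAT 3 was the nearest to it. Cd74 differed by 0.92 ± 0.23, H2-Aa by 0.85 ± 0.21 and H2-Ab1 by 0.85 ± 0.21 on the log2 scale (limma adjusted p = 0.0896 for each).

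H2-Eb1 was at 1898, 1499 and 1184 in WT_STAT samples, against 807, 836 and 817 in WT_control samples. Ciita was at 251, 216 and 77.1 in WT_STAT samples, against 67.4, 95.2 and 53.1 in WT_control samples. H2-Ob was at 182, 136 and 48.8 in WT_STAT samples, against 39.4, 41.9 and 28.4 in WT_control samples. H2-Eb1 and H2-Ob were apart, whereas for Ciita, H2-DMa and H2-DMb2 WT_STAT 3 lay within the control range. Across the list WT_STAT 3 was the lowest WT_STAT sample in 8 of 8 genes, beside 374 of 457 genes of the panel (81.8%). The mean log2 level was 10.44, 10.09 and 9.29 in WT_STAT samples, against 8.84, 9.08 and 8.80 in WT_control samples. The count that passed was 7 of 8 without WT_STAT 3, beside 44 of 457 genes of the panel (9.63%), and 5 of 8 without samples 3 of both groups, beside 31 of 457 (6.78%). As WT_STAT 3 was the lowest WT_STAT sample in 8 of 8 genes, leaving it out had to raise these differences. The removal of both samples 3 was chosen after seeing the data, so neither count is separate support. Over the 22 alternative settings the list median ran from 0.53 when centred to 1.14 without WT_STAT 3. Leaving out 1 or all of the IL10-labelled samples could not change this median, so those settings say nothing on it.

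MHC class I and its peptide supply were closer to the panel. Of 7 tested genes 0 passed in limma and 1 was higher at an unadjusted p under 0.05. The median was 0.23, and -0.15 when centred, beside -0.13 for the centred panel. B2m, the light chain of class I, was at 27544, 25674 and 24420 in WT_STAT samples, against 21503, 23345 and 20673 in WT_control samples. The groups were apart by a small margin, and the log2 difference of 0.24 ± 0.17 became -0.13 when centred.

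Macrophage markers were represented by 13 tested genes of 19 listed. None passed, 5 were higher at an unadjusted p under 0.05, 5 were apart and the median was 0.60 (0.52 with values under 20 set to 20), all 13 differences being positive. After median centring the median was 0.23, 0 of 13 were higher at an unadjusted p under 0.05 and 1 lay wholly above the controls. In the panel 36 of 457 genes (7.88%) lay wholly above them after centring. C1qb, a chain of the complement starter C1q that resident macrophages secrete, was at 1310, 1005 and 873 in WT_STAT samples, against 631, 552 and 644 in WT_control samples. Emr1, which encodes the macrophage surface protein F4/80, was at 346, 250 and 234 in WT_STAT samples, against 187, 144 and 139 in WT_control samples. Cx3cr1, the fractalkine receptor of resident gut macrophages, was at 212, 167 and 114 in WT_STAT samples, against 95.5, 85.6 and 89.5 in WT_control samples. All 3 genes were apart between the groups, with log2 differences of 0.78 ± 0.20 for C1qb and 0.81 ± 0.20 for Emr1 (limma adjusted p = 0.0896 for both) and 0.81 ± 0.23 for Cx3cr1.

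C1qa, the partner chain of C1qb, was at 1169, 837 and 793 in WT_STAT samples, against 542, 532 and 634 in WT_control samples, and was apart as well. Csf1r, the receptor for the growth factor that macrophages need, was at 441, 355 and 233 in WT_STAT samples, against 283, 221 and 199 in WT_control samples. The haemoglobin scavenger receptor Cd163 was at 240, 182 and 145 in WT_STAT samples, against 173, 192 and 104 in WT_control samples. Both overlapped, as did Msr1, Maf, Cd36 and Cd14, whose log2 differences ran from 0.18 to 0.31, and Cd163, Msr1, Maf, Cd36 and Cd14 turned negative when centred. Marco was at 0 in 5 of the 6 samples and at 9.23 in WT_STAT 2. Without samples 3 of both groups, a setting chosen after seeing the data, 4 of the 13 macrophage genes passed, beside 31 of 457 genes of the panel (6.78%).

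Dendritic cell genes had 11 tested members and a median log2 difference of 0.73 (0.39 with values under 20 set to 20), with 0 past the test in limma and 5 higher at an unadjusted p under 0.05. Batf3, the factor that cross-presenting dendritic cells need, was at 29.1, 30.0 and 29.0 in WT_STAT samples, against 12.2, 13.3 and 15.3 in WT_control samples. The 3 mice of each group were close together, with the fifth smallest p of the panel (adjusted p = 0.0502 in limma). Since all its WT_control values were below 20, its fold was at least 1.47 with the controls set to 20. The integrin chain Itgax (CD11c) was at 182, 123 and 68.7 in WT_STAT samples, against 65.6, 77.4 and 37.1 in WT_control samples, and overlapped through WT_STAT 3. The costimulator Cd86 was at 120, 101 and 107 in WT_STAT samples, against 75.6, 61.0 and 60.4 in WT_control samples, with no overlap (0.73 ± 0.22).

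Fc receptors bind the antibodies that plasma cells make. Of 6 tested Fc receptor genes 0 passed in limma, 3 were higher at an unadjusted p under 0.05 and 4 were apart, with a median of 0.60. After median centring 0 of the 6 were higher at an unadjusted p under 0.05, 0 lay wholly above the controls and 1 wholly below. The inhibitory receptor Fcgr2b was at 837, 637 and 400 in WT_STAT samples, against 390, 298 and 343 in WT_control samples. Fcgr3 was at 151, 118 and 118 in WT_STAT samples, against 81.9, 78.8 and 93.9 in WT_control samples, and Fcgr4 at 75.9, 41.6 and 60.2, against 25.8, 25.6 and 41.5. These 3 receptors were apart between the groups, Fcgr2b and Fcgr4 narrowly. The complement list, which holds C1qa and C1qb too, had 20 tested genes and a median of 0.51 (0.42 once values below 20 were raised to it). Of these genes 5 were higher at an unadjusted p under 0.05, beside 16.8% of the panel, and 0 after median centring. Its inhibitor Serping1 was at 828, 906 and 631 in WT_STAT samples, against 650, 534 and 440 in WT_control samples, and overlapped through WT_STAT 3.

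The sensor adaptor Tmem173 (STING), which signals from cytosolic DNA to type I interferon, was at 94.6, 77.9 and 70.1 in WT_STAT samples, against 41.2, 32.4 and 42.9 in WT_control samples. It was apart but did not pass (1.04 ± 0.24, adjusted p = 0.0839 in limma). The interferon-induced tether Bst2 was at 416, 400 and 396 in WT_STAT samples, against 240, 268 and 319 in WT_control samples, also apart (0.56 ± 0.17). The type I interferon list as a whole stood at the panel median: 15 tested genes, 2 of them higher at an unadjusted p under 0.05, and a median of 0.24. When centred, the list and the panel both had a median of -0.13.

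**Figure D3:**
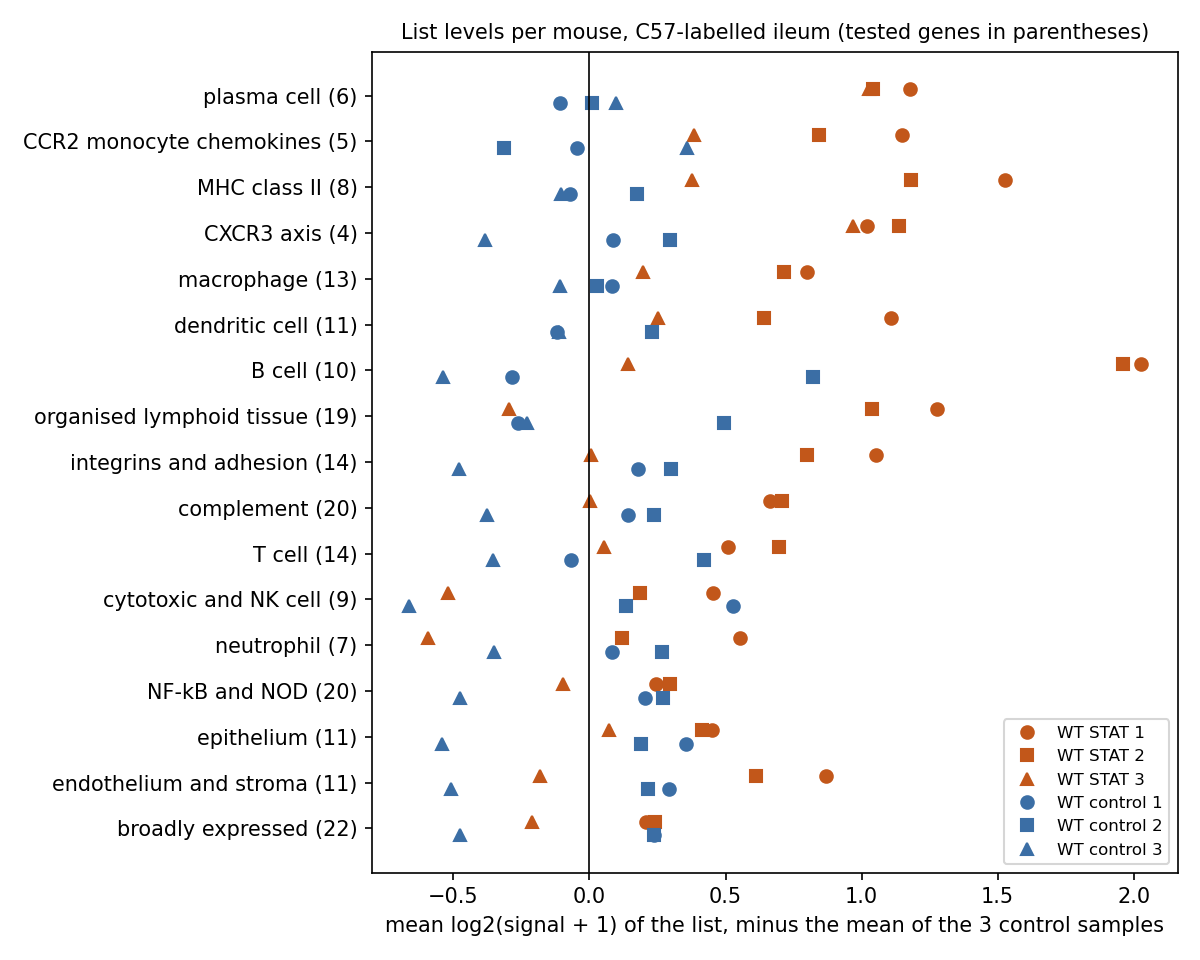
Mean of log2(signal + 1) over the tested genes of each list, per C57-labelled mouse, minus the mean of the 3 WT_control samples (x axis). Orange marks are STAT, blue marks control, and circles, squares and triangles are samples 1, 2 and 3. The 3 WT_STAT samples lie close together and right of all controls for the plasma cell and CXCR3 lists. WT_STAT 3 (orange triangle) lies left of the other WT_STAT samples in every list shown, the broadly expressed genes included. The gap is narrow in the plasma cell and CXCR3 lists and wide in the B cell list.

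B cell genes had the highest median of the marker lists, a log2 difference of 1.38 over 10 tested genes (0.87 with values under 20 set to 20), yet 0 passed in limma and 2 were higher at an unadjusted p under 0.05. The 3 WT_STAT mice did not share that difference. Ms4a1, the B cell surface protein CD20, was at 349, 298 and 61.6 in WT_STAT samples, against 41.2, 118 and 79.3 in WT_control samples. Cd79b, a signalling chain of the B cell receptor, was at 255, 167 and 64.4 in WT_STAT samples, against 27.6, 70.6 and 72.0 in WT_control samples. WT_STAT 1 and WT_STAT 2 were above every control in both genes, and WT_STAT 3 was within the control range. Cd22, a B cell inhibitory lectin, was at 104, 94.7 and 23.4 in WT_STAT samples, against 14.9, 20.1 and 13.8 in WT_control samples. It was the 1 member whose groups were apart, with a wide spread in WT_STAT (1.87 ± 0.64, adjusted p = 0.154 in limma).

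Over the B cell list the mean log2 level was 7.01, 6.94 and 5.13 in WT_STAT samples, against 4.70, 5.81 and 4.45 in WT_control samples. WT_STAT 3 was the lowest WT_STAT sample in 10 of 10 B cell genes, and in 9 of 10 after each sample was centred on its median, beside 130 of 457 genes of the panel after centring. For the plasma cell list the same counts were 3 of 6, and 0 of 6 after centring. WT_STAT 1 and WT_STAT 2 were both above all 3 controls in 9 of 10 B cell genes, 8 of 8 class II genes and 6 of 6 plasma cell genes, beside 211 of 457 in the panel.

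Organised lymphoid tissue was represented by chemokines and receptors of follicles and T zones. Of 19 tested genes 0 passed in limma, 4 were higher at an unadjusted p under 0.05 and 4 were apart, near the panel shares of 16.8% and 15.8%. The median was 0.55 (0.47 with values under 20 set to 20) and stayed above 0 under the 3 other scalings. The follicle chemokine Cxcl13 was at 511, 384 and 236 in WT_STAT samples, against 144, 242 and 188 in WT_control samples. The T zone chemokine Ccl19 was at 40, 45.5 and 21.9 in WT_STAT samples, against 9.50, 10.6 and 13.8 in WT_control samples, apart but below 20 in all controls, which gives a fold of at least 1.79. WT_STAT 3 was the lowest WT_STAT sample in 17 of 19 genes, near the panel's 374 of 457 (81.8%). After each sample was centred it was the lowest in 11 of 19, beside 130 of 457. When the mean level of the B cell list was added to the fit as a covariate, 0 genes passed. The log2 differences were then 1.615 for Irf4, 1.59 for Cxcl9, 1.88 for Ccl8 and 0.95 for Slamf7 (limma adjusted p = 0.0546 to 0.136). The class II median was 0.68, the plasma cell median 0.87, the macrophage median 0.45 and the lymphoid tissue median -0.12. The lymphoid tissue list shares Cr2 with the B cell list, so the covariate holds a member of it. The part of B cell follicle content in the other lists' differences was not tested beyond this fit, in which the B cell level also differs between the groups.

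T cell markers were nearer to the panel. Of 14 tested genes 0 passed in limma and 1 was higher at an unadjusted p under 0.05, with a median of 0.38 that turned to -0.11 after quantile normalization (0.33 with values under 20 set to 20). That gene was Cd2, an adhesion receptor, at 79.0, 94.7 and 54.5 in WT_STAT samples, against 17.6, 39.2 and 34.2 in WT_control samples. Cd4 was at 134, 84.4 and 85.6 in WT_STAT samples, against 85.5, 58.3 and 67.7 in WT_control samples, and overlapped. The early activation marker Cd69 and the checkpoint receptor Ctla4 had small p values, yet neither reached 20 in any C57-labelled sample. Cd69 was at 19.7, 10.5 and 19.1 in WT_STAT samples, against 1.36, 7.84 and 3.64 in WT_control samples. Ctla4 was at 16.6, 10.5 and 3.54 in WT_STAT samples, against 1.36, 2.39 and 2.18 in WT_control samples. Both were apart between the groups, at levels where no fold is given.

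Receptors of the common gamma chain family, which take up the lymphocyte growth cytokines, had 9 tested genes, 3 of them apart and higher at an unadjusted p under 0.05, and a median of 0.56 (0.15 once values below 20 were raised to it). After median centring 2 of the 9 lay wholly above the controls and 3 wholly below, beside 7.88% and 10.7% of the panel. The shared chain Il2rg was at 96.1, 67.5 and 57.3 in WT_STAT samples, against 33.9, 47.4 and 32.7 in WT_control samples. Il7r was at 116, 122 and 82.8 in WT_STAT samples, against 57.5, 65.1 and 42.9 in WT_control samples, and Il2ra at 40, 30.0 and 34.7, against 23.1, 16.0 and 16.7. None of the 3 passed (limma adjusted p = 0.0929 to 0.121).

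Leukocyte integrins and their ligands had 14 tested genes, all with a positive difference, 6 higher at an unadjusted p under 0.05, 5 apart and a median of 0.67. Itgal, the alpha chain of LFA-1, was at 180, 165 and 110 in WT_STAT samples, against 81.9, 105 and 51.7 in WT_control samples. Its ligand Icam1 was at 94.6, 96.0 and 57.3 in WT_STAT samples, against 53.8, 48.8 and 31.3 in WT_control samples. Both pairs of groups were apart, with WT_STAT 3 close to the highest control. The costimulation and checkpoint list had 18 tested genes, 1 past the test (Slamf7) and a median of 0.75 (0.36 once values below 20 were raised to it). Its member Cd48, a ligand on most leukocytes, was at 288, 254 and 156 in WT_STAT samples, against 124, 137 and 113 in WT_control samples. The chemerin receptor Cmklr1 of macrophages and NK cells was at 105, 98.6 and 61.6 in WT_STAT samples, against 53.8, 47.4 and 31.3 in WT_control samples, and it passed only when samples were scaled on the broadly expressed genes (adjusted p = 0.0436), when weighted by sample, or without WT_STAT 3 or samples 3 of both groups.

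Several programs lay near or below the panel median. The NF-kB and NOD list had 20 tested genes, 1 higher at an unadjusted p under 0.05, and a median of 0.11. Toll-like receptors had a median of 0.06 over 14 genes, JAK kinases and STAT factors 0.14 over 15, cell death genes 0.05 over 11, and the broadly expressed genes 0.04 over 22. All 5 of these medians were negative when centred, as was the panel median (-0.13). Toll-like receptor 2 (Tlr2) was among the genes lower in WT_STAT, at 291, 303 and 236 in WT_STAT samples, against 384, 423 and 299 in WT_control samples, with overlap through WT_control 3 (-0.41 ± 0.28).

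Neutrophil markers and acute inflammatory cytokines were near the lower end of detection in the C57-labelled ileum. Of 7 tested neutrophil genes 0 passed in limma and 0 were below an unadjusted p of 0.05. The list summed to 67.9, 38.7 and 14.2 in WT_STAT samples, against 34.4, 34.8 and 25.5 in WT_control samples. The calprotectin chain S100a9 was at 4.10, 0.162 and 0 in WT_STAT samples and at 0 in every WT_control sample. Tnf was at 19.7, 2.75 and 12 in WT_STAT samples, against 3.17, 9.21 and 5.09 in WT_control samples. Il1b was at 21.3, 27.4 and 16.3 in WT_STAT samples, against 24, 9.21 and 9.46 in WT_control samples. Their groups overlapped and their log2 differences did not pass. Of the 457 tested genes 42 were below 20 in all 6 C57-labelled samples and were tested because of the samples labelled IL10.

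The epithelium list was at the panel level, with a median of 0.16 over 11 tested genes. When centred it was -0.21, beside -0.13 for the panel. Of these 0 passed in limma and 3 were higher at an unadjusted p under 0.05 (16.8% in the panel), with 0 so after centring. The membrane mucin Muc1 was at 27.5, 23.5 and 44.6 in WT_STAT samples, against 16.7, 14.7 and 6.55 in WT_control samples, apart and below 20 in all controls. The epithelial oxidase Nox1 was at 52.5, 59.7 and 34.7 in WT_STAT samples, against 25.8, 10.6 and 32.7 in WT_control samples, apart by a small margin (1.16 ± 0.36, adjusted p = 0.125 in limma).

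Under the deposited scaling few genes were lower in WT_STAT, whereas after median centring 49 of 457 lay wholly below the controls. Il17f, a cytokine of Th17 and innate type 17 cells, was at 0, 4.05 and 0 in WT_STAT samples, against 4.98, 5.12 and 15.3 in WT_control samples. Under the deposited scaling it was the 1 gene whose WT_STAT values were wholly below the controls, at levels under 20 throughout, and it did not pass (adjusted p = 0.0929 in limma) except without WT_STAT 2 (0.024). Its relative Il17a was at 0.975, 0 and 0 in WT_STAT samples, against 0, 5.12 and 3.64 in WT_control samples, and overlapped. The cytokine signalling inhibitor Cish was at 55.6, 62.3 and 34.7 in WT_STAT samples, against 81.9, 85.6 and 58.9 in WT_control samples. Its groups overlapped through WT_control 3 and WT_STAT 2, and the log2 difference was -0.58 ± 0.26 (adjusted p = 0.28). The receptor Il23r of the same Th17 list lay the other way, at 58.7, 20.9 and 20.5 in WT_STAT samples, against 14.9, 17.4 and 13.8 in WT_control samples. Over its 9 tested genes the Th17 list had a median of 0.19, with 1 gene higher and 1 lower at an unadjusted p under 0.05. When centred the median was -0.18, beside -0.13 for the panel.

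The same contrast in mice labelled IL10 gave another panel median, a log2 difference of -0.22, and the difference between both contrasts (IL10-labelled minus C57-labelled) had a median of -0.48. In limma's test of that difference 0 of 457 genes passed, against 1 higher and 96 lower at an unadjusted p under 0.05. Irf4 was at 69.6, 111 and 89.7 in IL10_STAT samples, against 134, 79.9 and 94.2 in IL10_control samples, a log2 difference of -0.18. The WT_STAT levels of Irf4 thus lay in the range of the IL10-labelled samples, and the WT_control levels below all of them. The difference between the contrasts was -1.90 for Irf4 and -1.59 for Batf3 (limma adjusted p = 0.0815 for both), -2.23 for Ccl8 and -1.10 for Slamf7 (0.104 for both) and -1.17 for Cxcl9 (0.108).

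Cxcl9 and Ccl8 were on another scale in the IL10-labelled ileum. Cxcl9 was at 2060, 2053 and 2170 in IL10_STAT samples, against 1545, 2053 and 1873 in IL10_control samples. Ccl8 was at 1655, 1899 and 2200 in IL10_STAT samples, against 2700, 2525 and 2354 in IL10_control samples. Every one of these values was above the highest C57-labelled value of its gene, 85.6 for Cxcl9 and 595 for Ccl8. The list medians of the IL10-labelled contrast were -0.29 for class II, -0.03 for plasma cell genes, -0.19 for the CCR2 axis and -0.29 for macrophage genes. Those of the difference between contrasts were -1.20, -1.08, -1.15 and -1.06 in the same order, beside -0.48 for the panel, with 0 members past the test in each list.

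**Figure D4:**
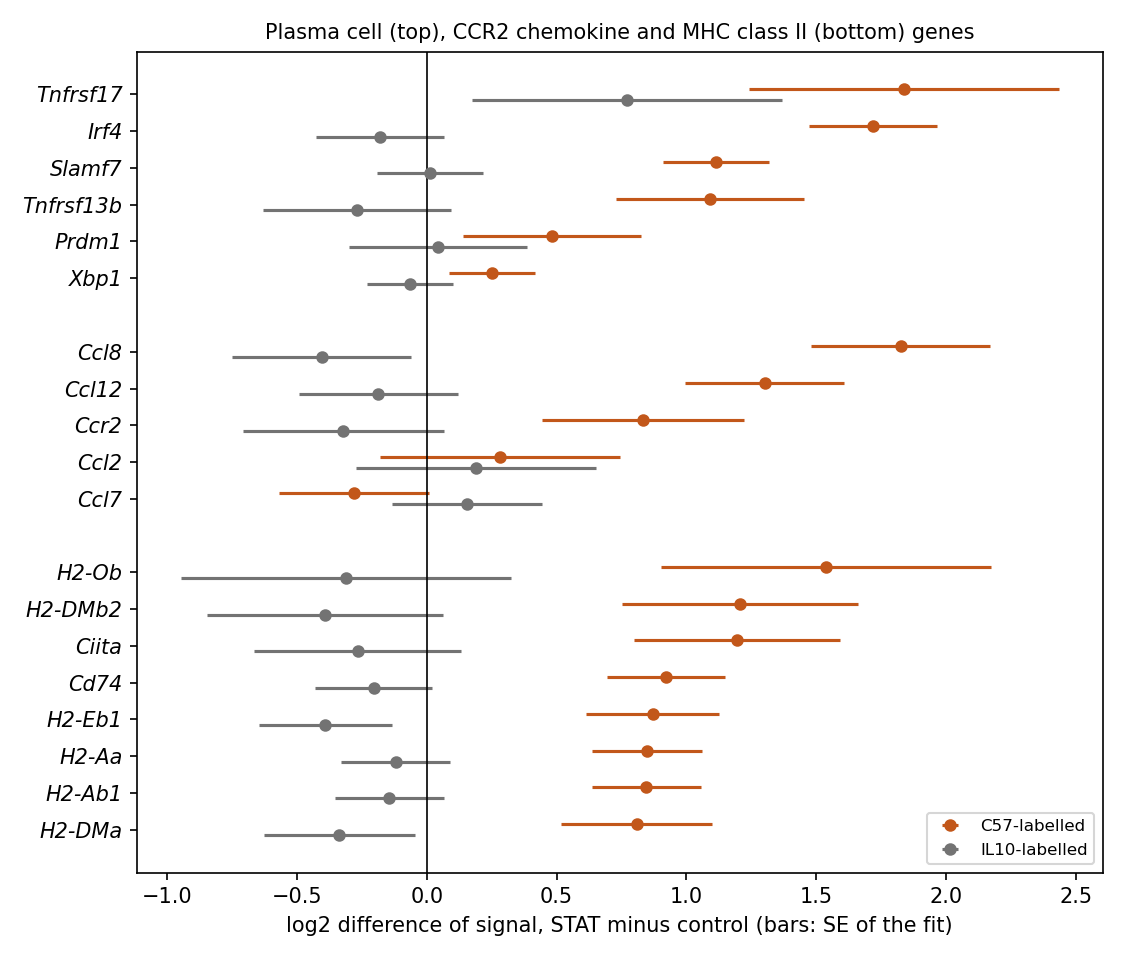
Log2 difference of signal, STAT minus control (x axis, bars are the SE of the fit), for the plasma cell, CCR2 chemokine and MHC class II genes, in C57-labelled mice (orange) and IL10-labelled mice (grey), 3 mice per group. All C57-labelled points but Ccl7 lie right of 0, and no difference between orange and grey passed the test.

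Samples differed in how much they weighed on the calls. Without WT_STAT 3 the number of genes past the threshold was 44, all higher, and without samples 3 of both groups it was 31, all higher, with the same 4 genes among them in both. Without WT_STAT 1 or WT_control 1 it was 0. Without WT_STAT 2 it was 2, Irf4 and Il17f, the second of them lower. Without WT_control 2 it was 4 (Irf4, Slamf7, Cxcl10 and Cd69), and without WT_control 3 it was 3 (Cxcl9, Ccl8 and Irf4). In those settings an arm of 2 samples was assumed to vary like the other groups.

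**Figure D5:**
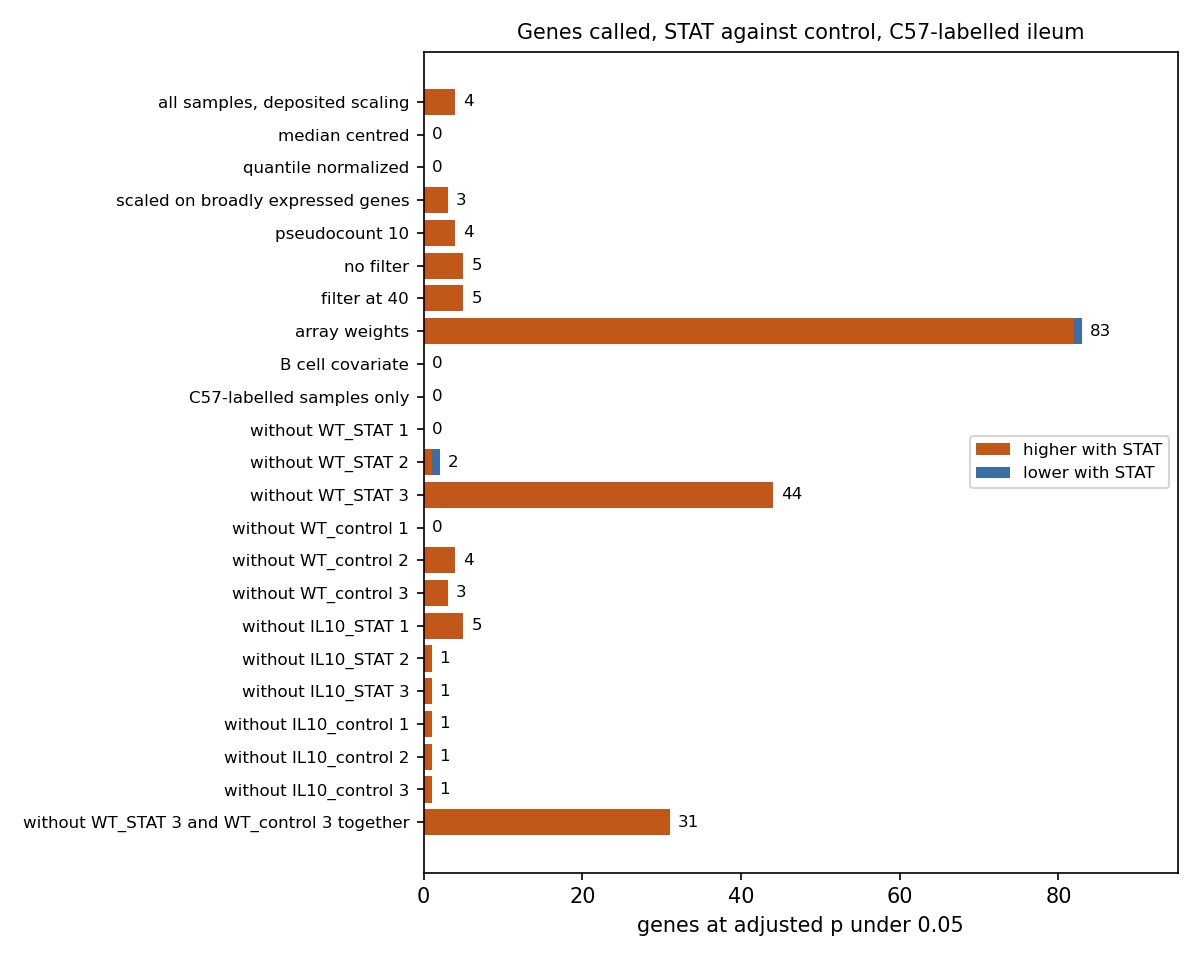
Number of genes at an adjusted p under 0.05 for STAT against control in the C57-labelled ileum (x axis) under the deposited scaling with all samples (top) and each alternative, higher with STAT in orange and lower in blue. The number runs from 0 to 83, with 44 without WT_STAT 3 and 0 after median centring.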

How the data were processed

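Per the labels' protocols, ileal RNA was prepared with TRIzol, cleaned on RNeasy columns and read with nCounter probe pairs. The deposited table holds 1 normalized linear signal per gene and sample; its normalization and software are not given in the sources used here. From the values, each signal is a count above background, set to 0 where negative, times 1 factor per sample (positive values are whole steps apart within 0.01), so count models were not used. Of 547 symbols, 531 were current in RefSeq, 14 were synonyms and 2 were unmatched.

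Genes that reached 20 in 3 or more of 12 samples were tested with limma 3.58.1 (R 4.3.3) on log2(signal + 1) (lmFit, eBayes, 1 coefficient for each of 4 groups, so that all groups share 1 spread), adjusted by Benjamini-Hochberg over 457 genes at 0.05. Log2 differences understate the change of low genes. Folds against a group wholly below 20 set it to 20. P-values measure the spread between these samples, which may be mice of 1 litter. Replicate numbers follow the order of the sample records. Comparisons were WT_STAT against WT_control, and the difference of that contrast from the one in IL10-labelled mice. Alternatives were 3 other scalings, a pseudocount of 10, no filter or a filter at 40, array weights, a B cell covariate, C57-labelled samples only and leaving out each sample. The calculation was tested on simulated data.

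The rule for named genes took every called gene, the 20 of smallest p, the 10 of smallest p among the lower, all tested members of 4 lists (MHC class II, CCR2 chemokines, plasma cell, macrophage), up to 3 of smallest p of every other list, Il10 and Ms4a1; not every gene so chosen is reported here. Pigr and H2-Ea-ps were added as checks of tissue and strain, and Ifng beside the genes it induces, after their values were seen. The 41 lists and the members described were chosen with earlier results of these data known. Lists are described by counts and medians and were not tested.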

Additional observations from a re-analysis of the deposited data

How the results depend on the processing

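The 4 calls held under the pseudocount of 10 (4 genes), with no filter (5) and with the filter at 40 (5). The number was 0 after median centring, quantile normalization, the B cell covariate or a fit of the C57-labelled samples alone, 3 when scaled on the broadly expressed genes and 83 (82 higher, 1 lower) with array weights, a fit that stopped before it converged. Leaving out 1 mouse at a time gave 0 to 44 genes, with 1 gene (Irf4) without IL10_STAT 2, IL10_STAT 3 or any IL10_control sample. Leaving out samples 3 of both groups, which was chosen after seeing the data, gave 31. For the difference between the contrasts of both genotype labels, where the number was 0, array weights gave 132, leaving out 1 mouse gave 0 to 58, and leaving out samples 3 of both groups gave 59. The cause was not tested. No paired analysis was possible because the labels carry no replicate numbers and name no litter, mother or cage.

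Of the 130 named genes, some changed sign, none of them past the threshold with all samples under the deposited scaling or in the setting that turned it; Ms4a1 and Stat4 passed with array weights (adjusted p = 0.0415 and 0.0402 in limma). Their log2 differences, WT_STAT minus WT_control, are in parentheses. Centring turned B2m (-0.13), Ccl2 (-0.0892), Cd14 (-0.18), Cd163 (-0.0841), Cd36 (-0.0654), Clec5a (-0.0414), Cxcl3 (-0.30), Il18r1 (-0.0104), Kit (-0.20), Maf (-0.19), Msr1 (-0.17), Socs1 (-0.0786), Tgfb3 (-0.0152), Tgfbr2 (-0.0174), Tnfaip3 (-0.0778), Traf5 (-0.12), Trp53 (-0.17) and Xbp1 (-0.12). Quantile normalization turned Ccl2 (-0.25), Cd14 (-0.094), Cd163 (-0.0377), Cd244 (-0.00354), Clec5a (-0.31), Gata3 (-0.11), Il18r1 (-0.11), Il1rl2 (-0.0169), Kit (-0.023), Klrk1 (-0.0675), Lif (-0.19), Maf (-0.25), Msr1 (-0.41), Prdm1 (-0.00192), Socs1 (-0.12), Tgfb3 (-0.0237), Tnfaip3 (-0.0505), Traf5 (-0.0323) and Trp53 (-0.041). The B cell covariate turned Cd14 (-0.0757), Clec5a (-0.65), Cxcl1 (-0.92), Cxcl3 (-1.61), Il18r1 (-0.0872), Il1b (-0.56), Kit (-0.0378), Maf (-0.37), Ms4a1 (-0.44), Msr1 (-0.0852), S100a9 (-1.17), Stat4 (-0.0769) and Tnfaip3 (-0.0888). Scaling on the broadly expressed genes turned Cxcl3 (-0.0079), array weights Maf (-0.0419) and leaving out samples 3 of both groups Nos2 (0.0648). Leaving out 1 mouse at a time turned the following, given with their lowest and highest value: Bid (-0.32 to 0.00198), Ccl2 (-0.14 to 0.69), Clec4e (-0.81 to 0.0722), Clec5a (-0.18 to 0.74), Cxcl1 (-0.52 to 0.85), Cxcr2 (-1.15 to 0.22), Kit (-0.35 to 0.55), Maf (-0.36 to 0.55), Msr1 (-0.0777 to 0.46), Stat2 (-0.13 to 0.81), Trp53 (-0.0135 to 0.36). Low signal limits genes below 20, and with 3 mice per group an exact permutation test of a single gene cannot give a p below 0.1.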

Other observations

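Some genes of other lists are given here as values. Tgfb1, the main isoform of TGF-beta in the immune system, was at 311, 237 and 189 in WT_STAT samples, against 177, 139 and 99.7 in WT_control samples, with groups apart (log2 difference 0.83 ± 0.30, adjusted p = 0.166 in limma). Its receptor chain Tgfbr2 was at 2009, 1805 and 1064 in WT_STAT samples, against 1492, 1354 and 915 in WT_control samples, and overlapped, with a difference of 0.35 that was -0.02 when centred. The kinase Map4k1 of lymphocytes was at 35.3, 39.0 and 33.3 in WT_STAT samples, against 19.5, 24.2 and 16.7 in WT_control samples, apart and not past the test (adjusted p = 0.143). The eosinophil chemokine Ccl11 was at 764, 719 and 400 in WT_STAT samples, against 546, 319 and 429 in WT_control samples, and its receptor Ccr3 at 38.4, 35.1 and 16.3 in WT_STAT samples, against 15.8, 20.1 and 9.46 in WT_control samples. Both overlapped between the groups.

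Kit, the stem cell factor receptor of mast cells and interstitial cells of Cajal, was at 584, 549 and 256 in WT_STAT samples, against 545, 564 and 187 in WT_control samples, with sample 3 of each group the lowest.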
